A study of Macaca mulatta with 24 samples.

Results

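The genes described here are 10 genes of insulin signalling and glucose transport, namely the receptor *INSR*, its substrates *IRS1* and *IRS2*, the kinase subunits *PIK3R1* and *PIK3CA*, the kinases *AKT1* and *AKT2*, the GTPase regulator *TBC1D4* and the transporters *SLC2A4* and *SLC2A1*. They were chosen by symbol, and all 10 were matched, each to 1 Ensembl identifier, among the 32386 genes of the count table. Omental white adipose tissue (WAT, the visceral fat of the greater omentum) came from 24 female rhesus macaques, 6 in each of 4 groups, with 1 RNA-seq library per animal. The controls (*C*) had cholesterol implants and chow, the *T* animals testosterone implants and chow, the *WSD* animals cholesterol implants and a high-fat Western-style diet, and the *T* + *WSD* animals testosterone implants with the Western-style diet. Treatment lasted 3 years. The labels give an age of 4 years for every animal, the methods of the study a somewhat older one, and age was not used here. The study chose these animals as representative of their groups for fat mass and insulin level, so the groups are not random draws. Whole biopsies were used, not isolated adipocytes, and in bulk tissue fewer cells of a type and less RNA per cell cannot be told apart.

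Insulin binds its receptor on the adipocyte surface, the receptor phosphorylates IRS proteins, and these recruit a phosphoinositide 3-kinase (PI3K) made of a regulatory and a catalytic subunit. The lipid that PI3K makes activates AKT, and AKT inactivates AS160, the product of *TBC1D4*, which otherwise keeps vesicles with the transporter GLUT4 inside the cell. GLUT4, the product of *SLC2A4*, then moves to the surface and lets glucose in, a response for which muscle and fat are known, while GLUT1, the product of *SLC2A1*, carries basal glucose in most cells. Much of this pathway works through phosphorylation and vesicle movement, which RNA counts do not measure.

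Libraries held 6899185 to 28270776 counts, with a median of 20630512.5. In 8 libraries, 2 in each group, a single gene took 9.92% to 54.7% of the counts, against 0.879% to 2.51% in the other 16, and these 8 are called the library batch below. The labels name no batch, and the 8 libraries were defined by the share of that gene alone. They were also shallower, with 6899185 to 17538167 counts against 20177588 to 28270776 in the other 16. In each group they are the 2 animals with the lowest replicate numbers. Levels are given as CPM, counts scaled by TMM to a library of 1000000. Since gene lengths were not used, levels were compared between groups and not between genes. The members had between 12 and 19955 counts in a library, with the lowest in *SLC2A1* and the highest in *PIK3R1*. The defining adipocyte genes were present in every library, *ADIPOQ* from 381 to 2124 CPM and *PLIN1* from 315 to 2812 CPM, although the row matched to *FABP4* held only 0.937 to 3.26 CPM.

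Few differences among the 10 genes were called (plot of levels by animal). A gene was called when its adjusted p from edgeR's quasi-likelihood test was under 0.05 and its fold change over 1.5, with adjustment over all 15207 genes tested. In *T* + *WSD* against *C*, 1 of the 10 genes was called, the higher *PIK3R1*, against 10% of all genes tested (4.72% higher). Against *T*, the *T* + *WSD* group had 2 called genes, a higher *PIK3R1* and a lower *IRS1*, against 3.77% of all genes (2.34% higher, 1.43% lower). *T* + *WSD* against *WSD* had 0 called members with edgeR, against 0.815% of all genes, and 0 with DESeq2, which called 431 genes in all, and 3 members had an unadjusted p under 0.05, as had 20% of all genes. *WSD* against *C* had 0 called members, against 0% of all genes with edgeR, and 0 members with DESeq2, which called 238 genes in all, with 3 members at an unadjusted p under 0.05 against 18.5% of all genes. *T* against *C* also had 0, against 0% of all genes with edgeR, and again 0 members with DESeq2, which called 7 genes in all, with 2 members at an unadjusted p under 0.05 against 8.63% of all genes. For the interaction of testosterone and diet, called at an adjusted p under 0.1, *IRS1* was the only member of the 10, against 0.809% of all genes (0.289% with a negative coefficient). These comparisons share animals, and those against *C* share the 6 controls, so their values are given side by side and not as separate support for each other.

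**Figure D1:**
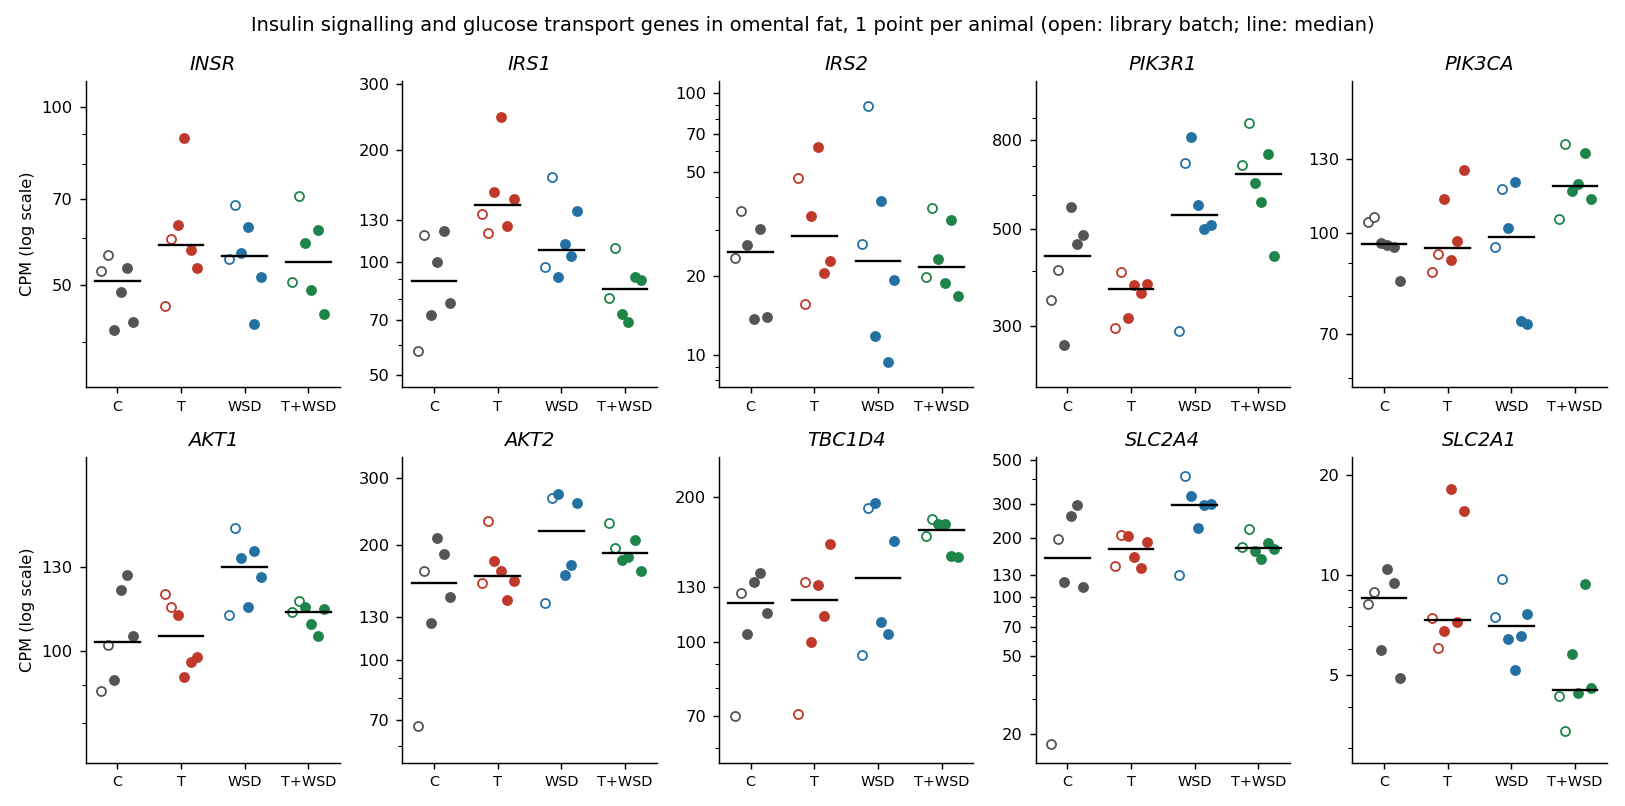
Levels of the 10 genes in CPM on log axes, 1 point per animal by group, with open points for the 8 libraries of the batch and a line at the median of 6 animals. The 6 *T* + *WSD* animals lie above every *T* animal for *PIK3R1* and below every *T* animal for *IRS1*, and 1 control animal lies far below the rest for *SLC2A4* at 17.8 CPM.

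The order of the 4 group means differed from gene to gene. *T* had the highest mean for 4 members, *WSD* for 3 and *T* + *WSD* for 3, while *C* had the lowest mean for 5. All 30 pairs of groups next to each other in these orders had overlapping ranges, which was not counted over all genes. Groups at the ends of an order did not always overlap. *IRS1* was lower in every *T* + *WSD* animal than in every *T* animal (3.10% of all genes), and *PIK3R1* higher (2.99%). *TBC1D4* was higher in every *T* + *WSD* animal than in every control (3.49%). *T* + *WSD* had the smallest coefficient of variation among the 4 groups for 6 of the 10 genes and the largest for 0, and no test was run on this. The median log2 fold change of the members was 0.15 in *T* + *WSD* against *C* (-0.04 over all genes), 0.34 in *WSD* against *C* (-0.02), 0.14 in *T* against *C* (-0.02), -0.16 in *T* + *WSD* against *WSD* (-0.03) and 0.08 in *T* + *WSD* against *T* (-0.03). In *T* + *WSD* against *C*, 8 of the 10 estimates were above 0, where 6853 of 15207 were among all genes.

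Single animals stood at the ends of several members at once. Animal C1 had the lowest level of the 24 for 5 members, *IRS1*, *AKT1*, *AKT2*, *TBC1D4* and *SLC2A4*. Its adipocyte markers (6 of the 8 listed genes in the table) summed to 1909 CPM, where the other animals began at 6889.8 CPM, and its mesothelial markers (8 of 9) summed to 3863 CPM, the top of the *C* group. Animal T16 had the highest *INSR*, *IRS1* and *SLC2A1*. Animal WSD20, whose library belongs to the batch, had the highest *IRS2*, *AKT1* and *SLC2A4*.

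**Figure D2:**
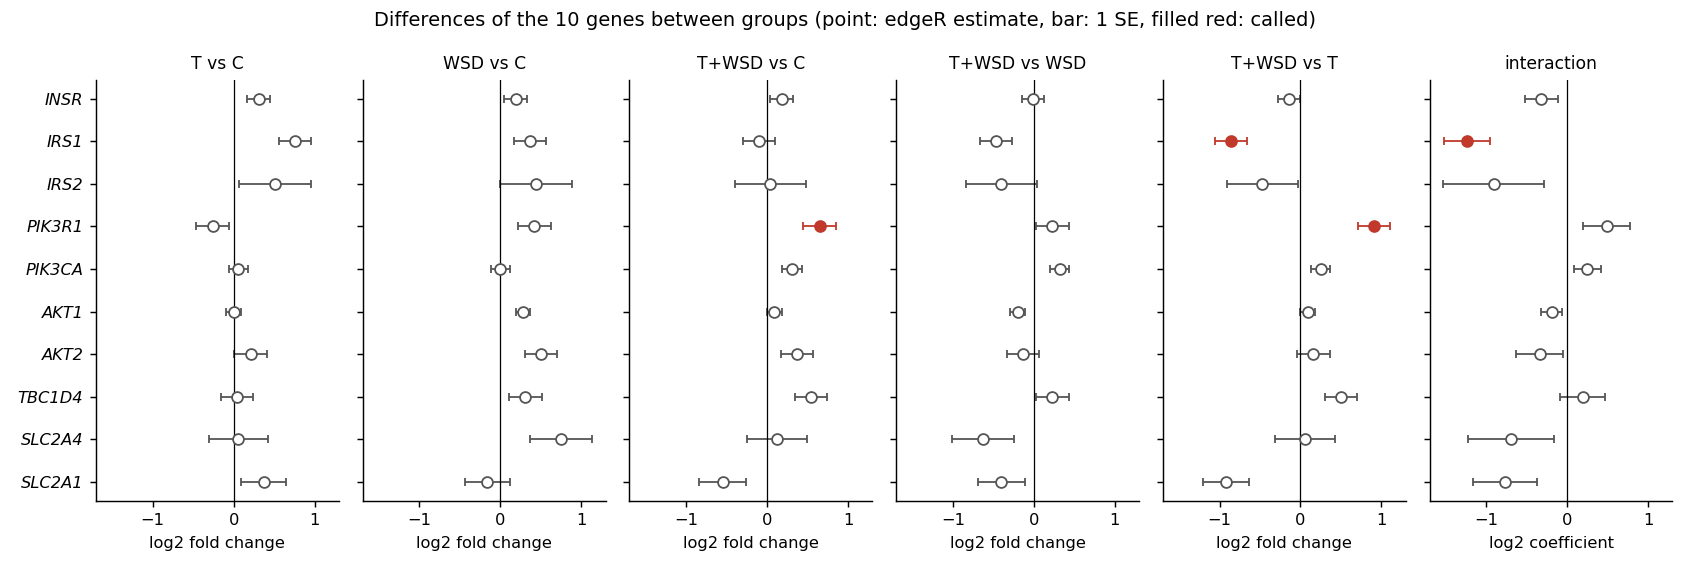
Differences of the 10 genes in each comparison on the log2 scale, with points for the edgeR estimate, bars for 1 SE and filled red points for called genes. Red points are *PIK3R1* at 0.65 and 0.91, *IRS1* at -0.86, and the *IRS1* interaction coefficient at -1.24.

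*INSR* encodes the insulin receptor. Its level ran from 42.0 to 56.1 CPM in *C* (median 50.8), from 46.0 to 88.5 in *T* (58.5), from 43.0 to 68.4 in *WSD* (56.0) and from 44.7 to 70.7 in *T* + *WSD* (54.7). The 4 ranges overlapped broadly, and 4 of 6 *T* animals lay above every control. The log2 fold change in *T* against *C* was 0.31 (SE 0.14, unadjusted p = 0.0348), which did not pass adjustment (edgeR adjusted p = 0.555). For *T* + *WSD* against *C* it was 0.18 (SE 0.14), with a 95% interval from -0.10 to 0.45.

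*IRS1* encodes the main receptor substrate of fat cells, the docking protein that brings PI3K to the receptor. It ranged from 58.0 to 121 CPM in *C* (median 89.1), from 120.1 to 244 in *T* (142), from 91.1 to 169 in *WSD* (108) and from 69.2 to 109 in *T* + *WSD* (84.9). All 6 *T* + *WSD* animals were below every *T* animal, which was so for 3.10% of all genes tested. The mean fell from 155 ± 45.9 CPM (SD, n = 6) in *T* to 85.3 ± 14.5 in *T* + *WSD*, a log2 fold change of -0.86 (SE 0.20, edgeR adjusted p = 0.0178). This was called in each of the 24 fits that left out 1 animal, with estimates from -0.93 to -0.69. In the 16 libraries outside the batch it was -1.05 (adjusted p = 0.0306), while within the 8 batch libraries it was -0.42 (SE 0.41, adjusted p = 0.860) and was not called.

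Under chow, *IRS1* was higher with testosterone by 0.76 on the log2 scale (SE 0.20), with an unadjusted p of 7.77e-04 but an edgeR adjusted p of 0.512, and 5 of 6 *T* animals lay above every control. Under the Western-style diet the difference between animals with and without testosterone was -0.47 (SE 0.20, edgeR adjusted p = 0.179), and 5 of 6 *T* + *WSD* animals lay below every *WSD* animal. The interaction coefficient, the second difference minus the first, was -1.24 (SE 0.28, 95% interval -1.78 to -0.69, edgeR adjusted p = 0.0564), past the threshold of 0.1 used for interactions. With DESeq2 it was -1.22 with an adjusted p of 0.00716. In the 16 libraries outside the batch the coefficient was -1.31 with an adjusted p of 0.343, and within the 8 batch libraries it was -1.02 (SE 0.58, adjusted p = 0.894). The coefficient was negative in every setting tried, while its adjusted p was not always under the threshold. Leaving out 1 animal ended the *IRS1* interaction call in 8 of 24 fits, those without C3, C6, T15, WSD20, WSD24, T+WSD7, T+WSD9 or T+WSD10, with coefficients from -1.34 to -1.06 over the 24. Between *T* + *WSD* and *C* the *IRS1* means were 85.3 ± 14.5 and 91.2 ± 25.6 CPM, with a log2 difference of -0.10 and a 95% interval from -0.48 to 0.29.

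*IRS2* encodes the other widespread substrate and had its widest spread in *WSD*, with a coefficient of variation of 91.5%. It ran from 13.7 to 35.6 CPM in *C* (median 24.8), from 15.7 to 62.2 in *T* (28.4), from 9.40 to 89.2 in *WSD* (22.9) and from 16.8 to 36.5 in *T* + *WSD* (21.6). The *WSD* range covered that of all other groups. None of the 6 comparisons gave an unadjusted p under 0.05 for *IRS2*, and the log2 fold change in *T* + *WSD* against *C* was 0.04 (SE 0.44, 95% interval -0.83 to 0.91).

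**Figure D3:**
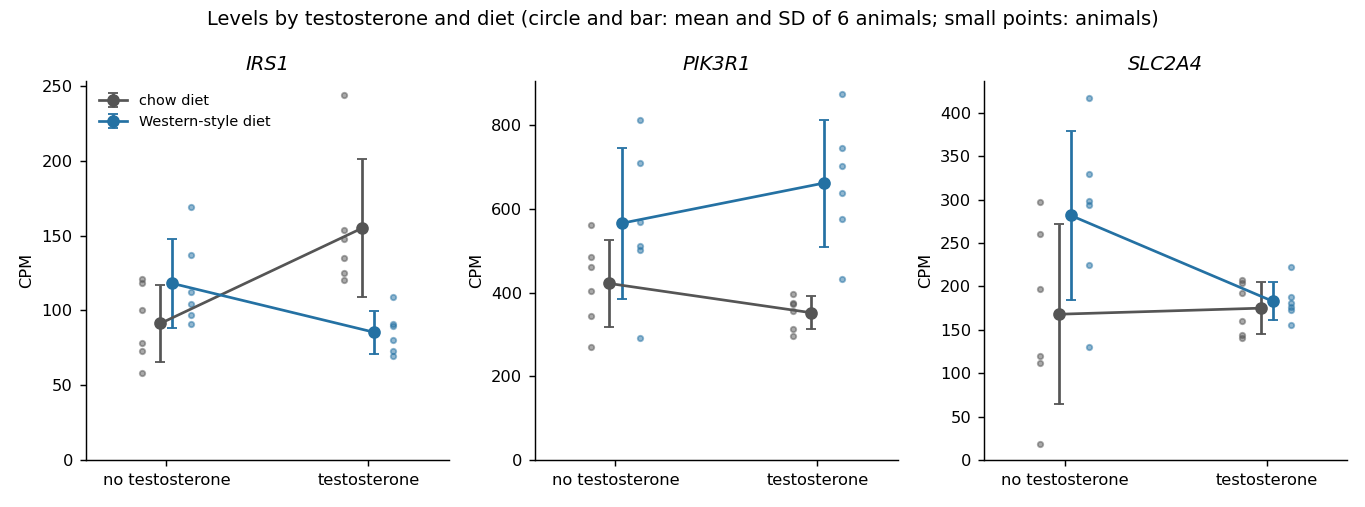
Levels of *IRS1*, *PIK3R1* and *SLC2A4* in CPM by testosterone (horizontal axis) and diet (line colour), with circles and bars for the mean and SD of 6 animals and small points for single animals. The lines for *IRS1* cross, from 91.2 to 155 CPM under chow and from 118 to 85.3 under the Western-style diet, while those for *PIK3R1* lie apart and those for *SLC2A4* meet near 175 and 183 CPM with testosterone.

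*PIK3R1* encodes p85α, the regulatory subunit that ties PI3K to IRS proteins. Its level was 271 to 563 CPM in *C* (median 433), 296 to 398 in *T* (364), 292 to 813 in *WSD* (539.6) and 433 to 876 in *T* + *WSD* (670.5). Every *T* + *WSD* animal was above every *T* animal, as for 2.99% of all genes, and 5 of 6 were above every control. The log2 fold change was 0.91 against *T* (SE 0.20, edgeR adjusted p = 0.0159) and 0.65 against *C* (SE 0.20, edgeR adjusted p = 0.0317). Values for the diet alone pointed the same way but did not pass, with 0.42 in *WSD* against *C* (SE 0.20, edgeR adjusted p = 0.267). *T* alone gave -0.26 (SE 0.20, edgeR adjusted p = 0.736), and the interaction coefficient of 0.49 (SE 0.29) had an adjusted p of 0.485.

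The *PIK3R1* difference between *T* + *WSD* and *C* was also estimated in parts of the libraries, and whether it differed between them was not tested. It was 0.44 (adjusted p = 0.274) in the 16 libraries outside the batch and 1.11 (SE 0.44, adjusted p = 0.367) within the 8 batch libraries, and with the batch as a covariate it was 0.65 (adjusted p = 0.0363). Over all genes, the 16 libraries called 78 in this comparison and the 8 batch libraries 0. Without C1, C3, T+WSD7, T+WSD8 or T+WSD11 the *PIK3R1* call against *C* was lost, with log2 fold changes from 0.55 to 0.75 over the 24 fits. Against *T* the *PIK3R1* call held in all 24 such fits, from 0.83 to 1.01, while the 16 libraries outside the batch gave 0.77 (adjusted p = 0.0684) and the 8 batch libraries 1.20 (SE 0.44, adjusted p = 0.744).

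Markers of some other cell types also differed between these groups. The mesothelial markers summed to 901 to 3863 CPM in *C*, 675 to 1717 in *T*, 187 to 1186 in *WSD* and 60.8 to 449 in *T* + *WSD*. Of these, 7 of the 8 tested were called lower in *T* + *WSD* than in *C*, as were 804 of all 15207 genes. Against *T*, 6 of 8 were called lower, and 1.43% of all genes. The endothelial markers summed to 925 to 1553 CPM in *C*, 1140.4 to 1859.6 in *T* and 1699 to 2699.6 in *T* + *WSD*. Of them 4 of 6 were called higher than in *C* (4.72% of all genes) and 0 of 6 than in *T*. The mesothelial *KRT8* and the endothelial *CLDN5* were matched only through the study's own supplementary tables. Those tables hold results of these data, so the entry of these markers may not be independent of their calls. Among adipocyte, macrophage, fibroblast and lymphocyte markers 0 were called in either comparison, and 1 of 5 smooth muscle markers was higher in each. With the mean mesothelial marker level as a covariate, the *PIK3R1* difference from *C* was 0.11 (adjusted p = 0.999) and that from *T* 0.46 (adjusted p = 0.722), and that fit called 0 of all 15207 genes in either comparison. With the mean adipocyte marker level instead, the *PIK3R1* difference from *C* was 0.35 (adjusted p = 0.435), again with 0 of all genes called. The *PIK3R1* difference from *T* stayed called with the adipocyte covariate, in a comparison with 483 of all genes called. *IRS1* against *T* was -1.19 with the mesothelial covariate (adjusted p = 0.231) and -0.97 with the adipocyte one (adjusted p = 0.00631), where it was called. The mesothelial list was chosen with earlier results of these data known, and its summed level overlaps neither between *C* and *T* + *WSD* nor between *T* and *T* + *WSD*, so the group and the covariate cannot be told apart in either comparison.

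**Figure D4:**
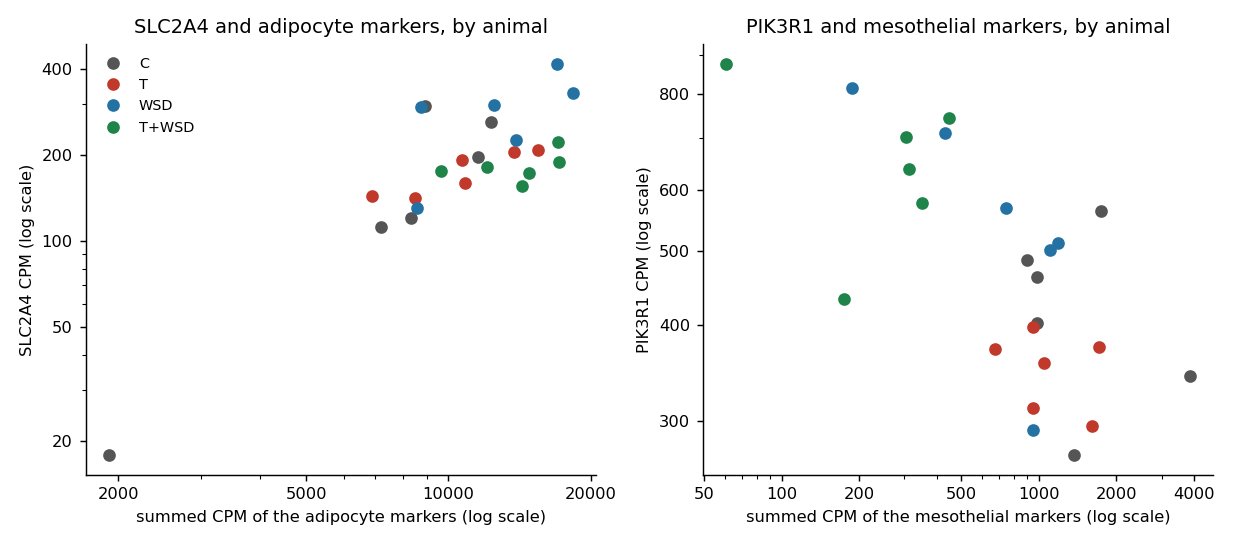
*SLC2A4* against the summed adipocyte markers and *PIK3R1* against the summed mesothelial markers, 1 point per animal in CPM on log axes. Animal C1 lies at the lower left of the first panel, at 1909 and 17.8 CPM, and the *T* + *WSD* animals lie at the low end of the mesothelial markers, from 60.8 to 449 CPM.

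*PIK3CA* encodes p110α, the catalytic subunit that pairs with p85α. It was 84.4 to 106 CPM in *C* (median 96.3), 87.3 to 125 in *T* (95.1), 72.6 to 119.7 in *WSD* (98.6) and 105 to 137 in *T* + *WSD* (118). The *T* + *WSD* animals sat high, 5 of 6 above every control, but the estimates were small. They were 0.31 against *C* (SE 0.12, edgeR adjusted p = 0.0755), 0.32 against *WSD* (SE 0.12, edgeR adjusted p = 0.142) and 0.25 against *T* (SE 0.12, edgeR adjusted p = 0.193), and none was called.

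*AKT1* and *AKT2* encode the AKT kinases, of which AKT2 is the isoform best known for insulin-driven glucose uptake in fat and muscle. *AKT1* was 88.2 to 127 CPM in *C* (median 103), 92.3 to 119.7 in *T* (105), 112 to 147 in *WSD* (130.1) and 105 to 117 in *T* + *WSD* (113). It was the tightest member in *T* + *WSD*, with a coefficient of variation of 3.91%. Its log2 fold change in *WSD* against *C* was 0.28 (SE 0.09, unadjusted p = 0.00575, edgeR adjusted p = 0.150).

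*AKT2* was 67.6 to 209 CPM in *C* (median 159), 144 to 231 in *T* (166), 141 to 272 in *WSD* (218) and 171 to 228 in *T* + *WSD* (191). The groups overlapped, and the *WSD* animals split into 3 above every control and 3 within the range of the controls. The *AKT2* difference in *WSD* against *C* was 0.50 (SE 0.20, unadjusted p = 0.0231, edgeR adjusted p = 0.206), and 0.35 (adjusted p = 0.479) without C1.

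*TBC1D4* encodes AS160, the AKT substrate that holds GLUT4 vesicles back. It was 70 to 139 CPM in *C* (median 120.4), 70.6 to 160.0 in *T* (122), 94.0 to 194 in *WSD* (136) and 150.3 to 180.1 in *T* + *WSD* (171). The lowest *T* + *WSD* animal was above the highest control, which was so for 3.49% of all genes tested. The fitted difference was 0.54 (SE 0.20, edgeR adjusted p = 0.0622), just short of both call thresholds at a fold of 1.45. Without C5 it was 0.60 with an adjusted p of 0.0464 and was called, and without C1 it was 0.45 with an adjusted p of 0.136. Against *T* it was 0.50 (SE 0.20, edgeR adjusted p = 0.117).

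*SLC2A4* encodes GLUT4, the insulin-responsive transporter. It was 17.8 to 297 CPM in *C* (median 159), 141 to 208 in *T* (176), 129.8 to 417 in *WSD* (297) and 156 to 222 in *T* + *WSD* (179). The control range spanned 16.7-fold, the *T* and *T* + *WSD* ranges 1.48-fold and 1.42-fold. *WSD* had the highest mean, 282 ± 97.4 CPM (SD, n = 6), against 168 ± 104 in *C*, a log2 difference of 0.75 (SE 0.38, edgeR adjusted p = 0.287). Without C1, the animal with the fewest adipocyte marker counts, it was 0.52 (SE 0.25, adjusted p = 0.480). *T* + *WSD* against *C* was 0.12 (SE 0.37) with C1 and -0.10 (SE 0.25) without, so its sign rested on that animal. With the adipocyte marker level as a covariate it was -0.58, and no fit run here called *SLC2A4* in any comparison.

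*SLC2A1* encodes GLUT1 and was the least counted member. It was 4.90 to 10.4 CPM in *C* (median 8.51), 6.02 to 18.2 in *T* (7.32), 5.17 to 9.76 in *WSD* (7.0) and 3.39 to 9.37 in *T* + *WSD* (4.50). In *T* + *WSD*, 5 of 6 animals lay below every *T* animal, and 4 of 6 lay below every control and every *WSD* animal. The difference from *T* was -0.92 (SE 0.28, edgeR adjusted p = 0.0530), not called by edgeR as run here. DESeq2 called it at -0.90 (adjusted p = 0.0290), as did edgeR without its legacy setting (-0.93, adjusted p = 0.0455) and 4 of the 24 fits without 1 animal, whose estimates ran from -1.17 to -0.68.

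The estimates of *SLC2A4* and *SLC2A1* against *C* had opposite signs in *WSD* and in *T* + *WSD* when all animals were used. Without C1 the signs in *T* + *WSD* were the same, at -0.10 and -0.53. Ratios of counts within an animal, which need no scaling between libraries, were therefore compared. These ratios were chosen after the values were seen, for 4 pairs of members in 5 comparisons, 20 tests in all. The *SLC2A4* to *SLC2A1* ratio was 2.19 to 31.3 in *C* (median 22.6), 8.79 to 34.5 in *T* (19.4), 17.4 to 51.3 in *WSD* (43.1) and 20.1 to 65.3 in *T* + *WSD* (36.8). In *WSD*, 5 of 6 animals exceeded every control, with a log2 difference of 1.23 (two-sided exact permutation p = 0.0260, adjusted p = 0.152). *T* + *WSD* against *C* gave 1.16 (exact permutation p = 0.0303, adjusted p = 0.152). Without C1, these were 0.65 and 0.59, the lowest of the fits that left out 1 animal. The *PIK3R1* to *PIK3CA* ratio was 2.75 to 4.27 in *T* and 3.84 to 6.71 in *T* + *WSD*, a log2 difference of 0.63 (exact permutation p = 0.00649, adjusted p = 0.130). None of the 20 passed adjustment. The *AKT2* to *AKT1* and *IRS1* to *IRS2* ratios had adjusted p values of 0.216 or more.

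The genes whose level followed a member most closely over the 24 animals are given as a description, since all genes of a library share its depth, scaling and cell make-up. For *SLC2A4* they were *DGAT2*, the enzyme of the last step of triglyceride synthesis (Pearson r = 0.95 on log2 CPM, 0.94 after centring on group means), *GPAM*, which starts that pathway (0.92), and *DNAJA4* (0.92). *AKT2* followed *ADCY6* (0.94), *RETSAT* (0.94) and *PLIN1*, which coats lipid droplets (0.93). Animal C1 was the lowest of the 24 for *SLC2A4* (17.8 CPM) and *AKT2* (67.6 CPM), so these r values may rest largely on it. Centring on group means does not remove such an animal, and no r was computed without it. *IRS2* followed *SIK1* (0.88), *EIF1* (0.82) and *NR4A1* (0.82), of which *SIK1* and *NR4A1* are known as rapidly induced genes. *TBC1D4* followed *CD36*, a fatty acid transporter (0.84), *MMP28* (0.83) and *TMTC1* (0.82).

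The closest partners of the other members follow in the same terms. *IRS1* followed *ORMDL3* (0.88), *WBP2* (0.85) and *BAP1* (0.82), and *PIK3R1* followed *MITF* (0.88), *MEGF9* (0.87) and *RFTN1* (0.87). *INSR* followed *DIP2C* (0.88), *MARK4* (0.84) and *BNIP3L* (0.81). *PIK3CA* followed *ASH1L* (0.82) and *GOLGA4* (0.81). *AKT1* followed *TUBG1* (0.90), *ACTR1A* (0.89) and *IDE*, an insulin-degrading enzyme (0.89). *SLC2A1* had the weakest partners, *AASS* (0.78), *FPGS* (0.73) and *RAB11FIP4* (0.73).

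Around the 10 genes, 105 further genes of the pathway were listed in 9 groups by role, of which 91 were in the table and 83 were tested. Of the 83, 7 were called in *T* + *WSD* against *C*, 8.43% against 10% of all genes, with 5 higher and 2 lower and a median log2 fold change of 0.05 against -0.04 over all genes. *T* + *WSD* against *T* called 3, or 3.61% against 3.77% of all genes, and *T* + *WSD* against *WSD* called 1, or 1.20% against 0.815%. In the 16 libraries outside the batch, and with either marker covariate, 0 of the 83 were called in *T* + *WSD* against *C*. Over all genes, the 16 libraries called 78 of 15448 and either covariate 0 of 15207. *WSD* against *C*, *T* against *C* and the interaction called 0 with edgeR, where 17, 6 and 3 of the 83 had an unadjusted p under 0.05 (18.5%, 8.63% and 13.5% of all genes), and DESeq2 called 1, 0 and 0.

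Of 8 tested genes listed as brakes on the receptor, 2 were called lower in *T* + *WSD* than in *C* and 0 higher, where 804 of all 15207 genes were called lower. Not every gene in this list acts on the receptor itself or only as a brake. The listed genes did not all go down, as 2 of the 8 estimates were above 0, the highest at 1.37, with a median of -0.19. *ENPP1*, a membrane enzyme known to inhibit the receptor, was 60.3 to 208 CPM in *C* and 36.5 to 69.9 in *T* + *WSD* (log2 fold change -0.84, SE 0.26, edgeR adjusted p = 0.0281). *GRB10*, an adaptor that binds and inhibits the receptor, was 79.1 to 160.2 CPM in *C* and 59.6 to 82.0 in *T* + *WSD* (-0.59, SE 0.20, edgeR adjusted p = 0.0499). The ranges of *ENPP1* and *GRB10* overlapped slightly. The *ENPP1* call was lost in 4 of the 24 fits without 1 animal, those without C1, T+WSD7, T+WSD8 or T+WSD9, and the estimate was -0.48 (adjusted p = 0.128) without C1 and -0.29 (adjusted p = 0.339) in the 16 libraries outside the batch. The *GRB10* call was lost in 17 of the 24 fits. It was also lost with DESeq2 (-0.57), with the other normalizations, without the filter on low counts and with the batch as a covariate (-0.59, adjusted p = 0.0568). A list of 7 tested genes held lipid phosphatases, which take apart the lipids that PI3K makes, and also a PI3K inhibitor that is no phosphatase. Of these 7, 1 was called, the higher *INPP4B*, where 4.72% of all genes were called higher. It went from 4.55 to 15.9 CPM in *C* to 11.5 to 22.8 in *T* + *WSD* (0.84, SE 0.23, edgeR adjusted p = 0.0175). The *INPP4B* call held in all 24 fits without 1 animal. It was lost in the 16 libraries outside the batch (0.75, edgeR adjusted p = 0.136) and with only the 2 groups compared (0.84, edgeR adjusted p = 0.0505).

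Of 20 tested genes of GLUT4 vesicle traffic, 2 were called in *T* + *WSD* against *C*, both higher, which is 10% of them and 10% of all genes (4.72% higher). *LNPEP* encodes the insulin-regulated aminopeptidase that travels in the same vesicles as GLUT4. It was 103 to 169.9 CPM in *C* (median 132), 127 to 209.8 in *T* (165), 122 to 249 in *WSD* (182) and 228 to 306 in *T* + *WSD* (253). All 6 *T* + *WSD* animals were above every *C* animal, as for 3.49% of all genes, and above every *T* animal, as for 2.99%, with a log2 fold change of 0.96 against *C* (SE 0.17, edgeR adjusted p = 0.00294) and 0.62 against *T* (SE 0.16, edgeR adjusted p = 0.0304). The *LNPEP* difference from *C* was called in all 24 fits without 1 animal, and it was 0.90 (adjusted p = 0.0620) in the 16 libraries outside the batch. The *LNPEP* call against *T* was lost in 6 of the 24 fits, and the 16 libraries gave 0.52 (adjusted p = 0.158). *MYO1C*, a motor protein of vesicle delivery, rose by 0.59 against *C* (SE 0.15, edgeR adjusted p = 0.0118). *STX6*, a syntaxin of vesicle sorting, was 26.0 to 35.6 CPM in *T* and 39.6 to 51.7 in *T* + *WSD*, higher by 0.59 (SE 0.14, edgeR adjusted p = 0.0182), with no overlap, as for 2.99% of all genes. Of the 24 fits without 1 animal, 5 lost the *STX6* call, and 4 lost that of *MYO1C*.

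**Figure D5:**
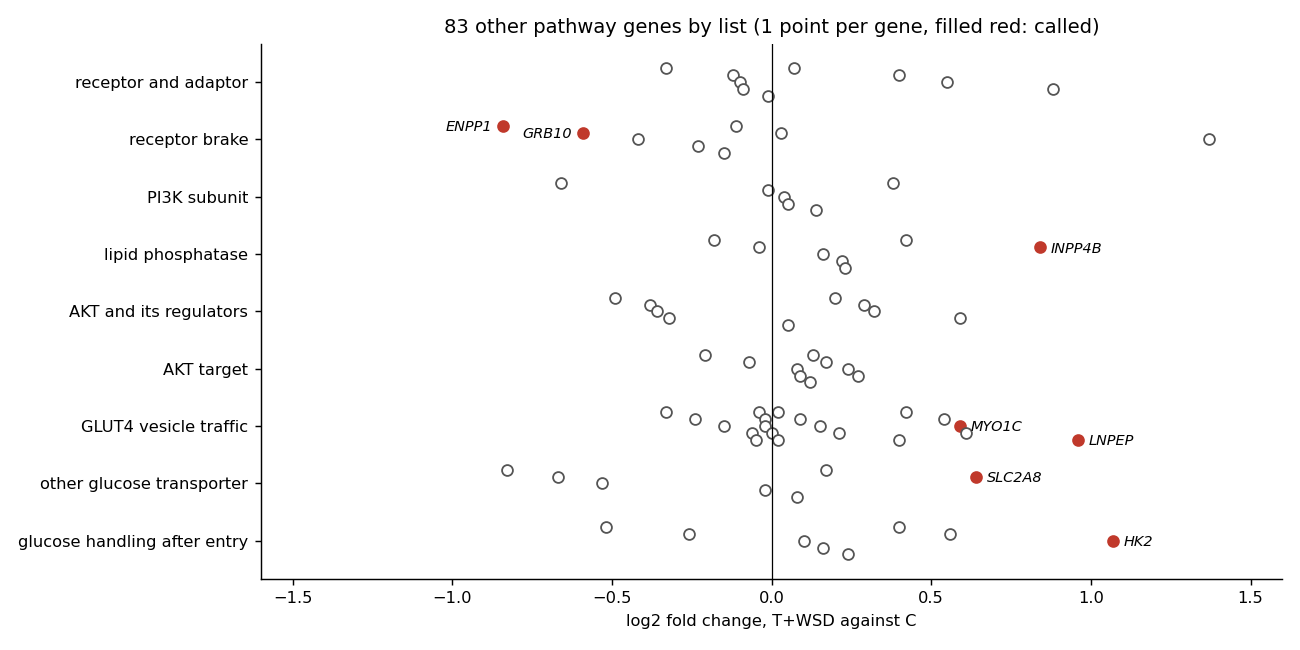
Log2 fold changes of the 83 tested pathway genes in *T* + *WSD* against *C* by list, 1 point per gene, with called genes filled in red and named. Of the 7 red points 5 lie above 0 and 2 below, with *HK2* at 1.07 and *ENPP1* at -0.84.

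Of 7 tested other glucose transporters and 8 tested genes that handle glucose after entry, 1 and 1 were called in *T* + *WSD* against *C* (10% of all genes), 0 and 1 against *T* (3.77%) and 1 and 0 against *WSD* (0.815%). *HK2*, the hexokinase known as insulin-responsive in muscle and fat, was 7.99 to 38.8 CPM in *C*, 7.38 to 38.3 in *T*, 17.3 to 62.7 in *WSD* and 35 to 64.6 in *T* + *WSD*. It was higher in *T* + *WSD* by 1.07 against *C* (SE 0.37, edgeR adjusted p = 0.0484) and by 1.39 against *T* (SE 0.37, edgeR adjusted p = 0.0316), and the *HK2* call against *C* was lost in 18 of the 24 fits without 1 animal. The *HK2* means of *WSD* and *T* + *WSD* lay side by side, at 46.1 ± 16.6 and 45.8 ± 11.8 CPM (SD, n = 6).

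*SLC2A8*, the transporter GLUT8, was higher against *C* by 0.64 (SE 0.20, edgeR adjusted p = 0.0304), a call lost in 5 of the 24 fits without 1 animal. *SLC2A5*, the fructose transporter GLUT5, was 31.2 to 388 CPM in *WSD* and 11 to 93.7 in *T* + *WSD*, a log2 difference of -2.30 (SE 0.58, edgeR adjusted p = 0.0437), and this call was lost in 13 of the 24 fits.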

How the data were processed

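RNA from omental WAT of 24 animals was sequenced after ribosomal RNA depletion with TruSeq libraries. The authors trimmed the reads and aligned them to rheMac8, and the submitters' processing notes name FastQC 0.11.5, Trimmomatic 0.36, STAR 2.5.2b and DESeq2 1.18.1. What the authors deposited is a single table of raw read counts, genes by animals, that had not been normalized. The counting tool and its strand setting are not given in the sources used here, so reads shared with overlapping, antisense or near-identical genes may be counted with a named gene. Groups came from the sample titles. Each library is 1 animal by its title.

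Counts were TMM-normalized, filtered with filterByExpr (minimum count 10, minimum total 15) and tested in edgeR 4.0.16 under R 4.3.3 with glmQLFit (robust and legacy settings on) and the quasi-likelihood F-test, in 1 fit of the 4 group means over all 24 animals. P values were two-sided and Benjamini-Hochberg adjusted over 15207 genes. SE is the size of the log2 fold change divided by the root of F, and 95% intervals are 1.96 SE on either side. CPM figures are TMM-scaled, and log2 CPM used a prior count of 2. DESeq2 1.42.0, other normalizations, no filter, the library batch, 2 marker covariates, only the 2 groups compared and each animal left out were alternatives. The script was tested on simulated data. Intervals cover the spread between animals, not mapping or counting choices.

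Named are the 10 members, each other pathway gene called in any of the 6 comparisons, and the 3 genes most alike to each member by Pearson r over 24 animals, apart from a few items that are not reported here. Members, lists, markers and the batch definition (1 gene over 5% of counts) were chosen with earlier results of these data known. Symbols came from a gene name table and, for genes without a name there, from the study's supplementary tables. Listed genes found in neither were left out. Sequences, positions and gene lengths were not used here. The bisulfite sequencing of the study was not analysed here.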

Additional observations from a re-analysis of the deposited data

Results flagged for a closer look

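Each member was checked in each group of 6 animals for a highest or lowest animal whose gap to its neighbour, as a share of the group's range, exceeded Dixon's critical value. Of 40 such groups 2 were over it, and chance gives about 1 in 20. *IRS1* in animal T16 was 244 CPM, where the next *T* animal had 154. *IRS2* in animal WSD20 was 89.2 CPM, where the next *WSD* animal had 38.9, and without that animal the log2 fold change of *IRS2* in *WSD* against *C* went from 0.44 to -0.17.

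The testosterone difference of *IRS1* itself differed between the diets at the adjusted p threshold of 0.1 used for interactions. The interaction coefficient was -1.24 (edgeR adjusted p = 0.0564), from a difference of 0.76 under chow and -0.47 under the Western-style diet, and neither of these passed adjustment alone. T16 is the highest animal of the *T* group. Without T16 the coefficient was the smallest of the 24 fits without 1 animal, -1.06, and the call held. The call was lost in 8 of the other fits without 1 animal. It was also lost in the 16 libraries outside the batch (edgeR adjusted p = 0.343) and within the 8 batch libraries (edgeR adjusted p = 0.894).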

How the results depend on the processing

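The members called in *T* + *WSD* against *C* went from 1 to 0 without the filter on low counts (the *PIK3R1* adjusted p was then 0.050), in the 16 libraries outside the batch, within the 8 batch libraries, and with the mesothelial or the adipocyte markers as covariate, and ranged from 0 to 2 when 1 animal was left out. In *T* + *WSD* against *T* they went from 2 to 1 in the 16 libraries and to 0 within the batch or with the mesothelial covariate. They ranged from 2 to 3 when 1 animal was left out, and *SLC2A1* was also called with DESeq2 and with edgeR's legacy setting off. The *IRS1* interaction, 1 member, went to 0 in the 16 libraries, within the batch and at an adjusted p under 0.05, and was 0 to 1 with 1 animal left out. The other pathway genes called in *T* + *WSD* against *C*, 7 at first, were 3 without the filter, 4 with the batch as covariate, 15 without a fold threshold and 0 in the 16 libraries, within the batch and with either marker covariate, with 2 to 8 when 1 animal was left out. In *T* + *WSD* against *WSD* they went from 1 to 2 with the adipocyte covariate and to 0 with upper-quartile factors, without the filter, in the 16 libraries, within the batch, with the mesothelial covariate and with only the 2 groups compared, with 0 to 1 on leaving out 1 animal. In *T* + *WSD* against *T* they went from 3 to 6 with DESeq2 or only the 2 groups, to 5 with edgeR's legacy setting off, in the 16 libraries or without a fold threshold, and to 0 without the filter, within the batch or with the mesothelial covariate, with 0 to 6 on leaving out 1 animal, and in *WSD* against *C* from 0 to 1 with DESeq2. The calls over all genes fell in several of these fits, but did not always move with the counts above. In *T* + *WSD* against *C* the calls over all genes went from 1522 of 15207 to 1499 with the batch as covariate. In the 16 libraries they went to 78 of 15448. Within the batch they were 0 of 13799, and with either marker covariate 0 of 15207. In *T* + *WSD* against *T* the calls over all genes went from 574 of 15207 to 308 of 15448 in the 16 libraries, where the other pathway genes called went up. DESeq2 called 1090 genes in this comparison, and the mesothelial covariate 0 of 15207. Fewer samples were tested in the batch fits, and the cause of the other changes was not tested.

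No called member changed sign in any of these settings, and the sign changes were in differences that were never called. With the mesothelial covariate *INSR* (-0.20), *IRS2* (-0.65), *AKT1* (-0.01) and *SLC2A4* (-0.40) turned in *T* + *WSD* against *C*, *AKT2* (-0.12) and *SLC2A4* (-0.40) against *T*, *PIK3R1* (-0.08) and *TBC1D4* (-0.02) against *WSD*, and *TBC1D4* (-0.02) in *T* against *C*. With the adipocyte covariate *IRS2* (-0.27), *AKT1* (-0.01), *AKT2* (-0.08) and *SLC2A4* (-0.58) turned in *T* + *WSD* against *C*, *AKT2* (-0.01) and *SLC2A4* (-0.27) against *T*, and *AKT2* (-0.07), *TBC1D4* (-0.19) and *SLC2A4* (-0.31) in *T* against *C*. In the 16 libraries these were *IRS2* in *WSD* against *C* (-0.08), *IRS2* and *INSR* in *T* + *WSD* against *WSD* (0.22 and 0.02), *SLC2A4* in *T* + *WSD* against *C* (-0.17), *AKT2* (-0.02), *SLC2A4* (-0.18) and the *SLC2A4* to *SLC2A1* ratio (-0.63) in *T* against *C*. *INSR* in *T* + *WSD* against *WSD* was 0.01 with DESeq2, RLE factors or only the 2 groups and 0.05 with upper-quartile factors. Leaving out 1 animal turned *INSR* (-0.08 to 0.05), *IRS2* (-0.59 to 0.21) and the ratios *SLC2A4* to *SLC2A1* (-0.29 to 0.11) and *PIK3R1* to *PIK3CA* (-0.25 to 0.02) in *T* + *WSD* against *WSD*. It also turned *IRS1* (-0.18 to 0.01), *IRS2* (-0.08 to 0.21), *SLC2A4* (-0.10 to 0.37) and *IRS1* to *IRS2* (-0.28 to 0.04) in *T* + *WSD* against *C*, *IRS2* in *WSD* against *C* (-0.17 to 0.63), and *PIK3CA* (-0.01 to 0.10), *TBC1D4* (-0.07 to 0.15), *SLC2A4* (-0.18 to 0.30) and *SLC2A4* to *SLC2A1* (-0.37 to 0.43) in *T* against *C*. The within-batch and ratio fits were chosen after the data were seen. No paired analysis was possible because the groups share no replicate numbers. The 6 animals per group and, for *SLC2A1*, as few as 12 counts limit what could be detected.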
